A study of Bos grunniens with 18 samples.

Results

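The blood of pregnant yaks was compared with the blood of yaks in estrus. The comparison uses 12 of the 18 libraries of the series: 6 from estrus (Y-E) and 6 from pregnancy (Y-P), chosen by the stage that the labels give and joined across stages by replicate number. Anestrus libraries enter only where a fit over all 3 stages is named. The yak (*Bos grunniens*) is the bovid of the high plateau. The study drew EDTA-anticoagulated whole blood from adult cows aged 4 to 8 years and followed 6 cows through the stages. All cows belonged to a herd in which estrus had been synchronised with a progesterone pessary, a prostaglandin (cloprostenol) and GnRH before timed insemination. The day of pregnancy is not given in the sources used here. Stage cannot be told apart from the date of sampling or from the hormone treatment that came before estrus.

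Whole blood holds several cell lineages at once. Myeloid cells (neutrophils, monocytes) carry the first response to microbes, with neutrophils storing antimicrobial proteins in granules. Lymphoid cells (T, B and natural killer cells) carry antigen-specific and cytotoxic responses, and reticulocytes are young red cells that still hold hemoglobin mRNA. A level in whole blood is a share of all mRNA, so fewer cells of a type and less RNA per cell cannot be told apart.

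The 12 libraries held 30343748 to 48401076 counts each. Of 20607 genes in the table, 20245 had at least 1 count in these libraries and 14027 passed the filter on low counts. Neutrophil, monocyte, T cell, B cell and red cell markers were all detected. Y-E replicate 6 stood apart. Hemoglobin genes took 8.36% of its counts (95% Wilson interval 8.35% to 8.36%, counting error only), against 0.0899% to 0.713% in the other Y-E libraries and 0.0272% to 0.376% in Y-P. The summed level of the reticulocyte markers in that library was 5046 CPM (counts scaled to library size), against 207 to 281 CPM in the other Y-E libraries. Each main result is therefore given with and without it.

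The blood of pregnancy held less myeloid and more T cell mRNA than the blood of estrus. The summed level of 23 neutrophil genes was 8064 to 14716 CPM in Y-E (median 12253) and 4213 to 7131 CPM in Y-P (median 5580). Every Y-P library lay under every Y-E library. The most abundant members weigh most in this sum: *CSF3R*, *S100A12* and *S100A9* had mean levels of 3072, 2213 and 928 CPM over the 12 libraries. The summed level of 23 T cell genes was 2617 to 3095 CPM in Y-E (median 2820) and 3249 to 4622 CPM in Y-P (median 3702), again with no overlap, here with Y-P above. The monocyte sum was lower in Y-P in 6 of 6 same-numbered pairs, but the groups overlapped (1423 to 2859 CPM in Y-E, 1065 to 2019 CPM in Y-P). B cell sums (884 to 2498 CPM in Y-E, 1164 to 3079 CPM in Y-P) and sums of natural killer and cytotoxic genes (252 to 552 CPM in Y-E, 364 to 596 CPM in Y-P) overlapped as well.

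The myeloid to lymphoid ratio divides the neutrophil and monocyte sum by the T, B and natural killer sum within each library, so it does not change with how libraries are scaled. On the log2 scale the ratio was 1.38, 1.63, 1.79, 0.95, 1.82 and 1.45 in Y-E replicates 1 to 6. In Y-P replicates 1 to 6 the log2 ratio was 0.23, -0.04, 0.25, -0.21, 0.14 and 0.53. The groups did not overlap. The highest Y-P value, that of replicate 6, lay below the lowest Y-E value, that of replicate 4. The mean difference, Y-P minus Y-E, was -1.35 ± 0.32 (SD over 6 pairs), a ratio 2.55-fold lower, and the difference was negative in 6 of 6 pairs. Without replicate 6 the mean difference was -1.44 ± 0.26 (SD over 5 pairs). The ratio of sums also weighs abundant genes most. With the mean of log2(CPM + 1) over the members in place of sums, the mean difference was -1.16 ± 0.38 (SD over 6 pairs). Since the ratio is a score over chosen genes it is described without a test.

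**Figure D1:**
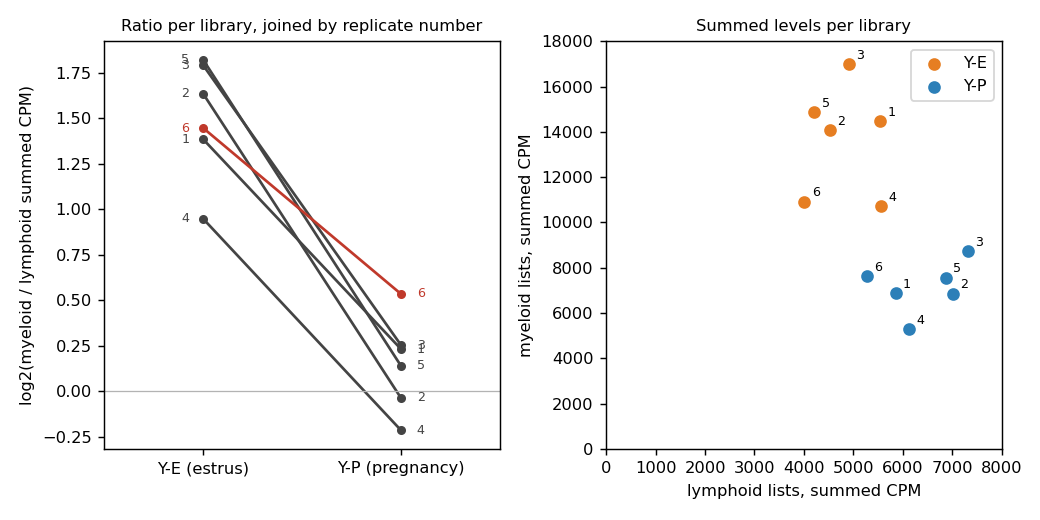
Left: log2 ratio of summed myeloid to summed lymphoid CPM in each library, joined by replicate number, with replicate 6 in red. Right: the summed CPM of the myeloid lists against that of the lymphoid lists, 1 point per library. Every Y-P library has a lower ratio than every Y-E library, and all 6 lines fall.

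Among the genes that passed the test, more were lower than higher in Y-P, although 6316 of the 14027 tested genes had a log2 fold change below 0 and the median over all was 0.06. With edgeR's quasi-likelihood test on the 12 libraries and replicate number as a block, 1500 of 14027 genes passed at an adjusted p under 0.05, 10.7% of those tested, of which 535 (3.81%) were higher and 965 (6.88%) lower. A gene is called here when it also changed at least 2-fold, that is by 1 on the log2 scale. In all, 314 genes (2.24%) were called, 49 (0.349%) higher and 265 (1.89%) lower. Of the called genes, 44 were higher and 244 lower in all 6 pairs, where 10.1% and 10.9% of all tested genes were. The fit that called them was blocked on the same pairs, so this agreement is no separate evidence. The split by direction depends on scaling. With library size alone, the median log2 fold change of all genes moved from 0.06 to 0.18, the calls came to 141 higher and 178 lower, and 1625 of the 2294 genes that passed were higher.

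Under the block, leaving out Y-E replicate 6 leaves Y-P replicate 6 without a partner, so that the stage difference then rests on 5 pairs. It lowered the number of genes that passed to 701 of 14179 (4.94%), 156 (1.1%) higher and 545 (3.84%) lower. Without it 281 genes (1.98%) were called, 32 (0.226%) higher and 249 (1.76%) lower. Both fits called 216 genes, 68.8% of the calls with the library and 76.9% of those without it. None of the genes called in either fit changed direction, and the median absolute change of the log2 fold change over all genes was 0.06. Without the block 1747 genes (12.5%) passed, 722 (5.15%) higher and 1025 (7.31%) lower, and 358 (2.55%) were called, 74 (0.528%) higher and 284 (2.02%) lower. Without both the block and Y-E replicate 6, 1676 (11.8%) passed, 713 (5.03%) higher and 963 (6.79%) lower, and 354 (2.5%) were called, 78 (0.55%) higher and 276 (1.95%) lower. Y-E replicate 6 was not the library on which the count of calls rested most. With the block, 156, 142 and 151 genes were called without Y-E replicate 2, 3 or 5, and 179, 146 and 171 without Y-P replicate 2, 3 or 5.

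**Figure D2:**
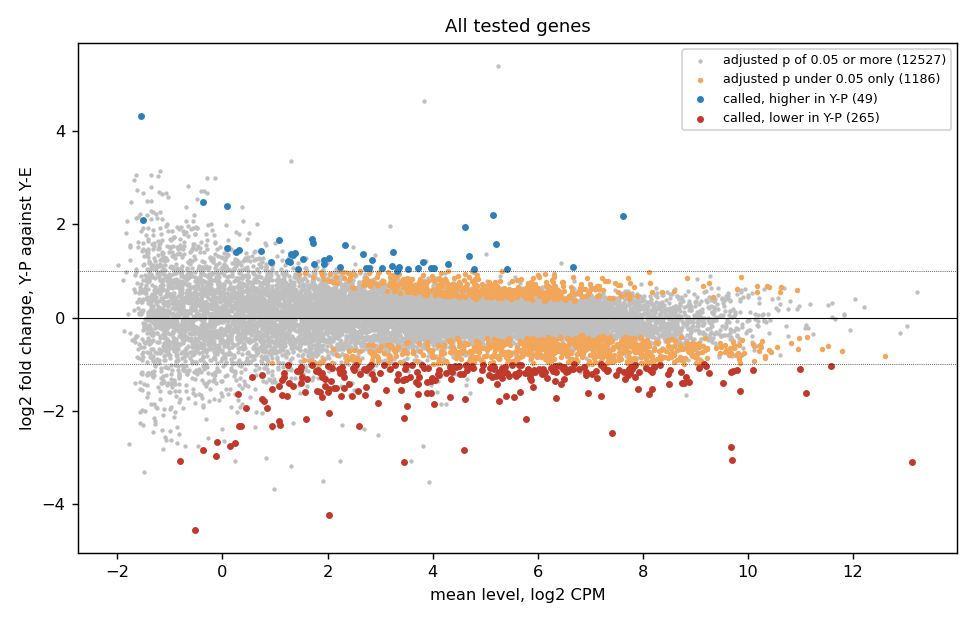
Log2 fold change of Y-P against Y-E (vertical) against mean level in log2 CPM (horizontal) for the 14027 tested genes. The 265 genes called lower reach further into the abundant genes than the 49 called higher.

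**Figure D3:**
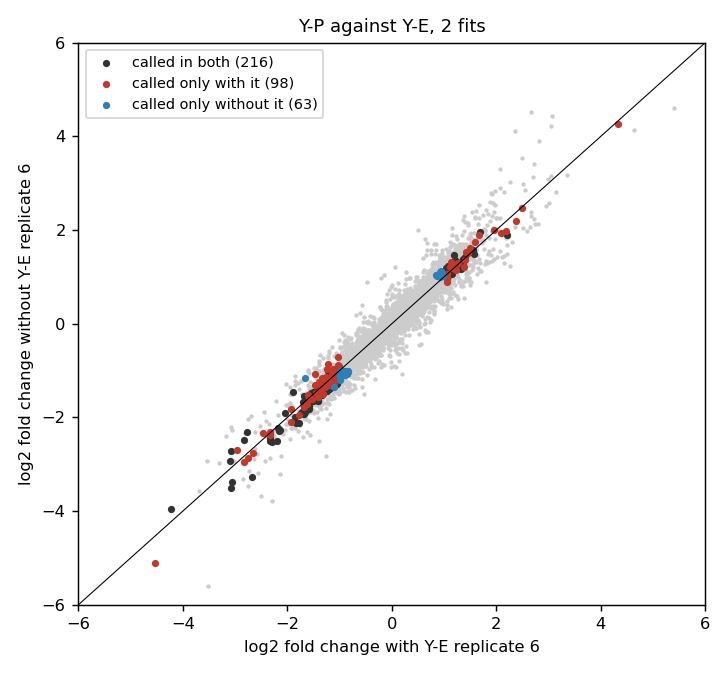
Log2 fold change fitted without Y-E replicate 6 (vertical) against that fitted with it (horizontal), 1 point per gene tested in both, with the line of equality. The 216 genes called in both, the 98 called only with the library and the 63 called only without it lie near the line.

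Lower genes were most frequent among the abundant ones. Among 2806 genes at a mean level of 77.8 to 9615 CPM, 466 were lower and 98 higher, and the median log2 fold change was -0.10 (0.03 with library size alone). Among 2806 genes at 10.6 to 29.0 CPM, 129 were lower and 161 higher, and the median was 0.12. Small nucleolar RNAs, which guide the modification of ribosomal RNA, had a median of 0.33 over 131 genes (3 higher, 0 lower). The library preparation selected poly(A) RNA, so levels of such short RNAs are uncertain.

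Most tested neutrophil genes were lower in Y-P. Of 33 symbols in the list, 23 were in the table and 22 were tested. The share of each list that passed is read against 3.81% of all tested genes higher and 6.88% lower. Without Y-E replicate 6 these background shares are 1.1% and 3.84%. In the neutrophil list 13 (59.1%) were lower and 0 higher, with a median log2 fold change of -1.13, beside 0.06 over all tested genes. Without Y-E replicate 6, 10 were lower (median -1.27). All 13 fell in 6 of 6 pairs, the pairs on which the fit was blocked, and 10 were called. The stages did not overlap for 3 of the 22, each with Y-P lower, where 3.64% of all tested genes had every Y-P library under every Y-E library.

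*CSF3R* encodes the receptor for granulocyte colony-stimulating factor, which drives neutrophil production. Its level was 2628 to 5357 CPM in Y-E (median 4186) and 1579 to 2250 CPM in Y-P (median 2012). No Y-P library reached the lowest Y-E library, Y-E replicate 4. The log2 fold change was -1.04 (SE 0.18, adjusted p = 0.0133), and -1.11 (adjusted p = 0.0227) without Y-E replicate 6.

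*S100A8*, *S100A9* and *S100A12* encode the calcium-binding proteins that fill the neutrophil cytosol. *S100A9* was at 430 to 2125 CPM in Y-E (median 1496) and 220 to 973 CPM in Y-P (median 413). The groups overlapped through Y-E replicate 6, the lowest Y-E library, yet each pair fell. The log2 fold change of *S100A9* was -1.58 (SE 0.21, adjusted p = 0.0083), and -1.77 (adjusted p = 0.0156) without that library. *S100A12* fell by 1.60 on the log2 scale (adjusted p = 0.0172) and *S100A8* by 1.69 (adjusted p = 0.0251, and 0.0881 without the replicate block).

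Of 15 tested genes for granule proteins, 8 were lower and 0 higher (median -1.5, and 7 lower without Y-E replicate 6). *ELANE* (0.28) and *MPO* (0.20), of the azurophil granules, lay above 0, and *LTF*, *LCN2*, *PGLYRP1*, *CRISP3* and *CATHL6* lay below 0 without passing. This list shares members with the neutrophil list. Its 8 lower genes include *S100A8*, *S100A9* and *S100A12*, whose proteins fill the cytosol, and *ARG1*. *MMP9*, the gelatinase of the tertiary granules, was at 52.9 to 304 CPM in Y-E (median 166) and 37.0 to 132 CPM in Y-P (median 59.8). Its groups overlapped, with Y-E replicate 6 again the lowest of Y-E. It fell by 1.23 on the log2 scale (SE 0.28, adjusted p = 0.026). *ARG1*, arginase, was at 3.41 to 215 CPM in Y-E (median 12.6) and 0.517 to 10.3 CPM in Y-P (median 2.14), and replicate 6 was the highest library of both stages. The log2 fold change was -2.83 (adjusted p = 0.0083), and -2.48 (adjusted p = 0.017) without Y-E replicate 6. Without both the block and that library *ARG1* had -1.80 and did not pass (adjusted p = 0.102). In Y-E replicates 1 to 6 *ARG1* was at 23.7, 3.41, 3.95, 7.38, 17.7 and 215 CPM. The hemoglobin shares of these libraries were 0.713%, 0.107%, 0.294%, 0.0899%, 0.610% and 8.36%. A part of red cell RNA in the *ARG1* level was not tested. *OLFM4*, a specific-granule protein of a subset of neutrophils, fell by 1.5 (adjusted p = 0.0136, and 0.0501 without the replicate block).

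The other 9 neutrophil genes did not pass, and 6 of the 22 had fold changes above 0: *LRG1* (1.05), *VNN2* (0.54), *ELANE* (0.28), *STEAP4* (0.24), *MPO* (0.20) and *QSOX1* (0.01). *VNN2*, a vanin of the neutrophil surface, was at 241 to 1797 CPM in Y-E and 214 to 1628 CPM in Y-P, with a log2 fold change of 0.54 (adjusted p = 0.383) and lower levels in 4 of 6 pairs.

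Of 18 tested monocyte genes, 8 were lower and 0 higher (median -0.54, with 4 lower without Y-E replicate 6). *CD36*, also in this list, was below the filter and, at low counts, higher in Y-P in 6 of 6 pairs. The 3 chains of complement component C1q fell. *C1QA* was at 8.88 to 37.4 CPM in Y-E (median 23.1) and 5.79 to 17.1 CPM in Y-P (median 8.03), with overlap and a rise in 1 pair. Its log2 fold change was -1.33 (SE 0.29, adjusted p = 0.0249), and -1.32 (adjusted p = 0.0567) without Y-E replicate 6. *C1QB* fell by 1.23 and *C1QC* by 1.34 (adjusted p = 0.0236 and 0.0309). *ADGRE1*, the macrophage antigen F4/80, fell by 1.21 (adjusted p = 0.0252).

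All 23 tested T cell genes had fold changes above 0 (median 0.42). 6 of them passed and 0 were lower, with 2 passing without Y-E replicate 6. The stages did not overlap for 2 members, both with Y-P higher, beside 2.51% of all tested genes. *LEF1*, a transcription factor of naive T cells, was at 238 to 309 CPM in Y-E (median 262) and 335 to 451 CPM in Y-P (median 391). The groups did not overlap, with Y-E replicate 1 the highest of Y-E. Its log2 fold change was 0.55 (SE 0.12, adjusted p = 0.0249), and 0.51 (adjusted p = 0.0654) without Y-E replicate 6. *IL7R*, the interleukin-7 receptor that sustains naive T cells, rose by 0.56 (adjusted p = 0.0363) with 1 pair against it, and by 0.68 (adjusted p = 0.0285) without that library. Without the replicate block its adjusted p was 0.0849. *CD3D*, a chain of the T cell receptor complex, had 0.40 (adjusted p = 0.115) and *CD4*, the co-receptor of helper T cells, 0.33 (adjusted p = 0.112). The 6 that passed also include *CD3G* (0.86), *CD27* (0.71), *LAT* (0.49) and *ZAP70* (0.46), all parts of T cell signalling, named after their values were seen. Of 13 regulators of naive T cells, 2 were higher, *LEF1* and *IL7R*, which are also in the T cell list.

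Of 16 B cell genes 3 (18.8%) were higher and 0 lower (median 0.44). They include *CD79B* (0.68) and *BLK* (0.51), named after their values were seen, which both belong to B cell receptor signalling. Without Y-E replicate 6, 1 was higher, and without the block 0 passed. *CD79A* and *MS4A1* (CD20), the most abundant members, had 0.55 (adjusted p = 0.165) and 0.51 (adjusted p = 0.123). Of 13 natural killer and cytotoxic genes 1 (7.69%) was higher, beside 3.81% of all tested genes. It was the receptor gene *KLRK1* (0.70, adjusted p = 0.0292), and 0 were higher without Y-E replicate 6.

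**Figure D4:**
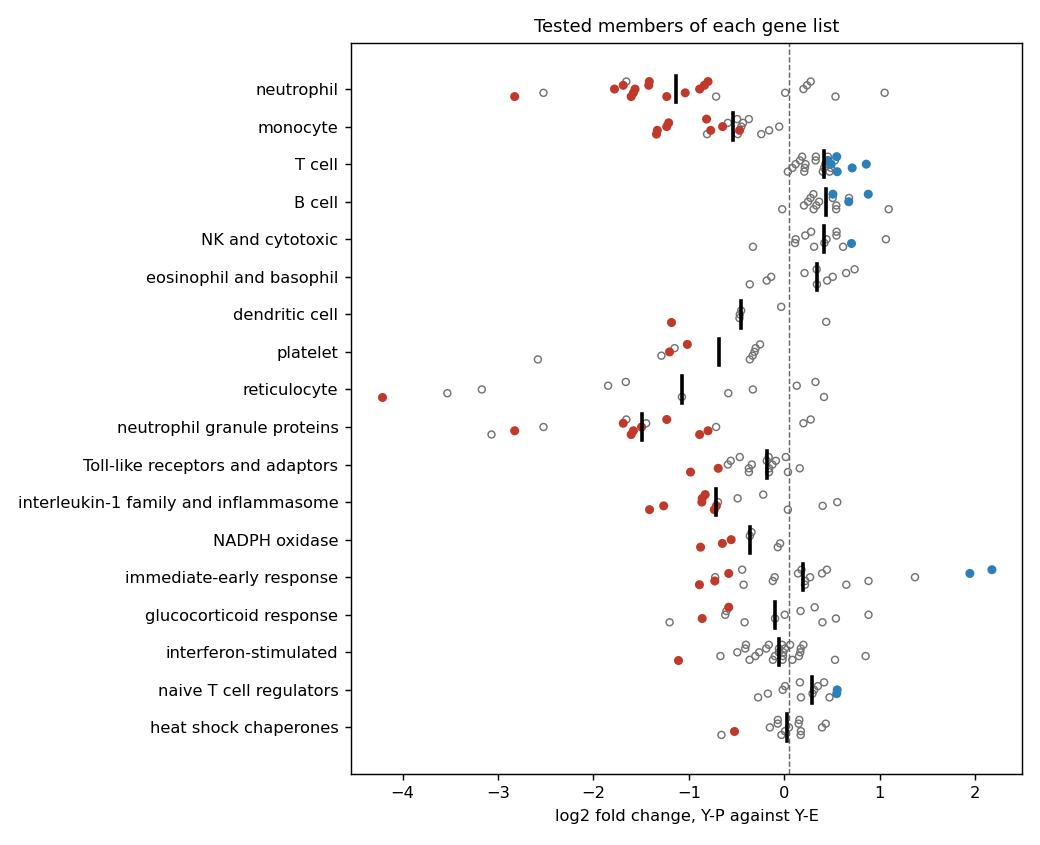
Log2 fold change of every tested member of each list (points), with its median (black bar) and the median of all tested genes (dashed line). Filled points passed at an adjusted p under 0.05, in red where lower and in blue where higher in Y-P. The medians of the neutrophil and granule lists lie left of the dashed line and that of the T cell list right of it.

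Genes of the interleukin-1 system fell with the myeloid markers. Of 13 tested, 7 were lower and 0 higher (median -0.71, with 5 lower without Y-E replicate 6). *IL1B*, the cytokine interleukin-1 beta, was at 188 to 390 CPM in Y-E (median 352) and 86.5 to 170 CPM in Y-P (median 153). The groups did not overlap, and replicate 6 was the lowest library of Y-E. The log2 fold change was -1.26 (SE 0.17, adjusted p = 0.0083), and -1.32 (adjusted p = 0.017) without it. *IL1A* fell by 1.41 (adjusted p = 0.031). The antagonist of the same receptor, *IL1RN*, also fell, by 0.86 (adjusted p = 0.0138). The summed neutrophil level was lower in the same libraries, and its part in these changes was not tested.

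Of 17 Toll-like receptors and adaptors 2 (11.8%) were lower, *MYD88* and *TLR9*, beside 6.88% of all tested genes. *MYD88*, the adaptor that most Toll-like receptors and the interleukin-1 receptor share, was at 186 to 417 CPM in Y-E (median 274) and 112 to 168 CPM in Y-P (median 135), without overlap. It fell by 0.98 (SE 0.16, adjusted p = 0.0128). Of 7 subunits of the NADPH oxidase, which makes the oxidative burst, 3 (42.9%) were lower, *CYBB* (-0.56), *CYBA* (-0.65) and *NCF4* (-0.88). *CYBA* had an adjusted p of 0.151 without the replicate block. Of 27 interferon-stimulated genes 1 was lower, *PARP14* (-1.12), where 6.88% of all tested genes were, and 0 without Y-E replicate 6 (adjusted p of *PARP14* 0.0629). Of 13 glucocorticoid-responsive genes 2 (15.4%) were lower, *IL1R2* and *ZFP36*, and 1 without Y-E replicate 6. Without the replicate block the adjusted p was 0.193 for *IL1R2* and 0.0551 for *ZFP36*.

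2 of 10 platelet genes (20%) were lower, *TUBB1* and *GNG11* (list median -0.69), beside 6.88% of all tested genes. Without Y-E replicate 6, 1 was lower, the median was -0.42 and *GNG11* had an adjusted p of 0.0711. *TUBB1*, the tubulin of platelets, was at 127 to 252 CPM in Y-E (median 198) and 61.2 to 98.4 CPM in Y-P (median 80.5), without overlap. It fell by 1.20 (SE 0.18, adjusted p = 0.0098), and by 1.26 (adjusted p = 0.0198) without Y-E replicate 6. Of 11 reticulocyte genes 1 (9.09%) was lower, the hemoglobin gene *HBM*, at 0.954 to 28.6 CPM in Y-E and 0 to 0.73 CPM in Y-P. Without Y-E replicate 6, 2 were lower and 1 higher. Other hemoglobin genes were outside that list. *ENSBGRG00000014632* was at 787 to 83724 CPM in Y-E and 234 to 3310 CPM in Y-P, with overlap. It fell by 3.09 (adjusted p = 0.0171), and by 2.73 (adjusted p = 0.0414) without Y-E replicate 6. *ENSBGRG00000011277* fell by 2.77 (adjusted p = 0.0241), and by 2.31 (adjusted p = 0.0427) without that library. *HBQ1* had -0.87 (adjusted p = 0.384). *ALAS2*, the first enzyme of heme synthesis in red cells, was at 91.5 to 4388 CPM in Y-E and 39.0 to 120 CPM in Y-P, and the Y-E maximum is replicate 6. It had -1.66 (adjusted p = 0.0672) with that library and -1.15 (adjusted p = 0.0232) without it. 1 of 6 dendritic cell genes (16.7%) was lower, *XCR1* (-1.18), and 0 without Y-E replicate 6 (adjusted p = 0.0696). With all 12 libraries, 0 of 10 eosinophil and basophil genes passed (median 0.34).

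Immediate-early genes are switched on within minutes of a stimulus. Of 20 tested, 2 were higher, *FOS* and *EGR1*, and 3 were lower, *FOSL2*, *IER3* and *ZFP36*, where 3.81% of all tested genes were higher and 6.88% lower. Without Y-E replicate 6, 0 were higher and 1 lower, with adjusted p = 0.0629 for *IER3* and 0.05003 for *ZFP36*. Without the replicate block *IER3* had an adjusted p of 0.0658. *FOS* was at 34.5 to 57.5 CPM in Y-E (median 41.4) and 58.1 to 1100 CPM in Y-P (median 197). The groups did not overlap, but the levels in Y-P spread widely, and replicates 2 and 6 were the highest. *FOS* rose by 2.18 (SE 0.50, adjusted p = 0.0275), and had 1.98 (adjusted p = 0.0715) without Y-E replicate 6. *EGR1* was at 5.31 to 160 CPM in Y-P against 3.31 to 13.7 CPM in Y-E and rose by 1.95 (adjusted p = 0.0389), with 2.00 (adjusted p = 0.081) without that library. The summed level of the list was 6267 and 4546 CPM in Y-P replicates 2 and 6, against 2000 to 2627 CPM in the other Y-P libraries. The study's methods state that blood was mixed with TRIzol LS and frozen in liquid nitrogen straight after collection.

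Across all genes with a symbol, the 10 called genes with the smallest adjusted p in each direction that moved the same way in all 6 pairs were examined. *KLF11*, a Kruppel-like zinc-finger repressor (chromosome 9, 113729036 to 113739430 in the deposited annotation), was at 13 to 30.5 CPM in Y-E (median 17.4) and 43.6 to 73.3 CPM in Y-P (median 53.6). All Y-P libraries lay above all Y-E libraries. It rose by 1.57 (SE 0.19, adjusted p = 0.0083), and by 1.49 (adjusted p = 0.017) without Y-E replicate 6. *RGS1*, which damps chemokine receptor signalling, was at 4.73 to 12.6 CPM in Y-E (median 9.11) and 13.6 to 158 CPM in Y-P (median 24.5), with the same high libraries as *FOS*, Y-P replicates 2 and 6. It rose by 2.21 (SE 0.40, adjusted p = 0.0151), and by 1.90 (adjusted p = 0.0305) without Y-E replicate 6. *BLOC1S4*, a subunit of a complex that builds lysosome-related organelles, rose by 1.35 (adjusted p = 0.0083). Others that rose include *MYO5C* (1.55), an unconventional myosin, *STAG3* (1.40), a cohesin subunit, *CFAP74* (1.36), *ADAMTS10* (1.09), a secreted metalloprotease, *ALG13* (1.07), of N-glycan synthesis, and *TRIB3* (1.01), a pseudokinase.

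*RFX2*, a transcription factor of the RFX family (chromosome 8, 19101827 to 19210934), had the smallest adjusted p of the genes that fell. It was at 14 to 25.1 CPM in Y-E (median 14.7) and 2.53 to 5.10 CPM in Y-P (median 3.94), with no overlap. Its log2 fold change was -2.14 (SE 0.19, adjusted p = 0.00745), and -2.26 (adjusted p = 0.0156) without Y-E replicate 6. The other 9 were *MYORG* (-1.86), a glycosidase, *DMXL2* (-1.36), a regulator of the proton pump of vesicles, *MB21D2* (-1.35), *ANKRD22* (-1.33), *RAB20* (-1.32), a GTPase of phagosomes, *UPP1* (-1.30), uridine phosphorylase, *UBTD1* (-1.26), *GNG7* (-1.23), a G protein subunit, and *PAX8* (-1.21), a paired-box factor. *RFX2*, *MB21D2*, *UBTD1*, *BCL6*, *LEF1* and *ARG1* overlap a gene on the other strand and *STAG3* overlaps one on its own strand. *BRI3*, *ALPL* and *CSF1R*, named below, also overlap a gene on the other strand. The strand setting of the counting is not given in the sources used here, so reads of such partners cannot be told apart.

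**Figure D5:**
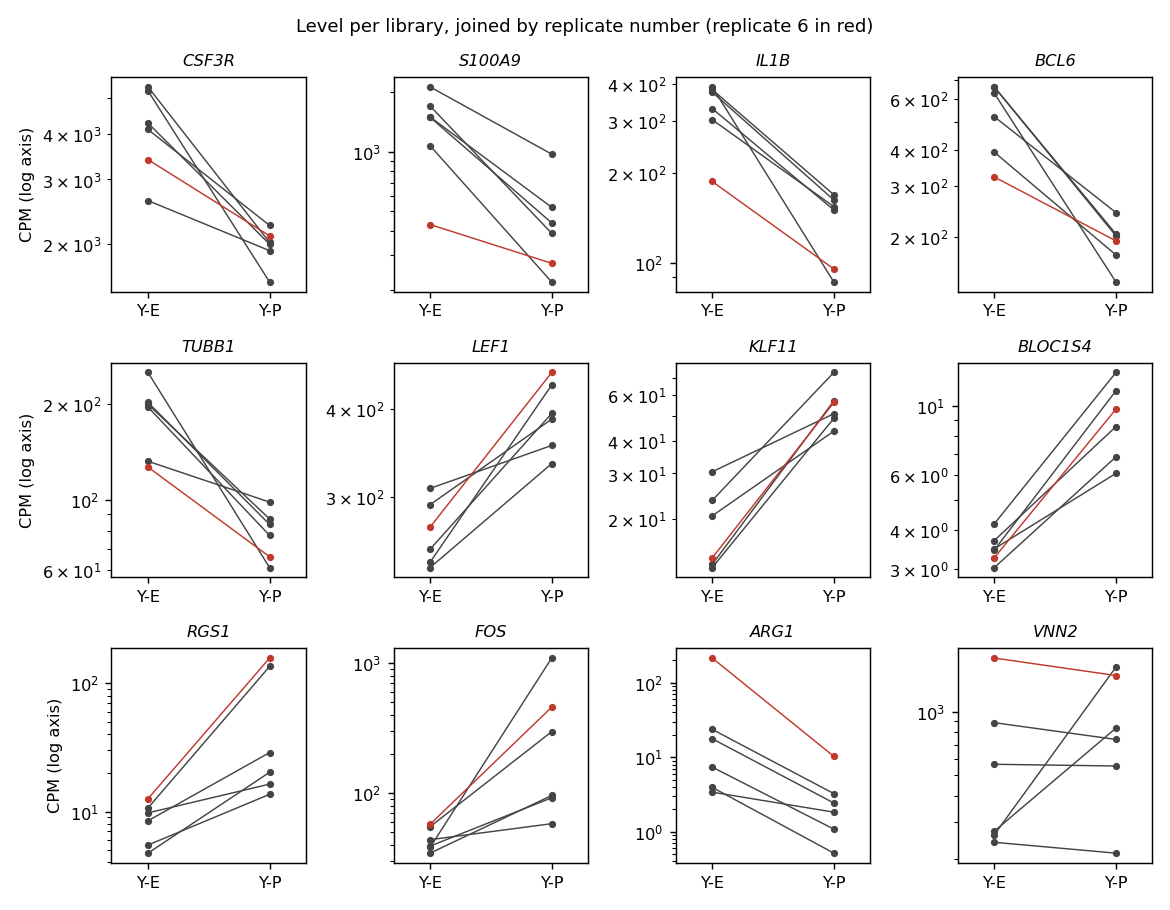
Level in CPM (log axis) of 12 genes in each library, joined by replicate number, with replicate 6 in red. *CSF3R*, *IL1B*, *BCL6* and *TUBB1* fall and *LEF1*, *KLF11*, *BLOC1S4*, *RGS1* and *FOS* rise without overlap of the stages, *S100A9* and *ARG1* fall in each pair with overlap, and *VNN2* has no common direction.

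15 genes are named in the text of the study, chosen there on these libraries, so their directions are not independent evidence. Of these, 12 were tested, 2 were higher and 6 lower. *BCL6*, a transcriptional repressor, was at 323 to 661 CPM in Y-E (median 574) and 140 to 243 CPM in Y-P (median 198), with no overlap, and fell by 1.43 (SE 0.19, adjusted p = 0.0083). *RARA*, the retinoic acid receptor alpha that acts in granulocyte maturation, was at 820 to 1503 CPM in Y-E (median 1139) and 465 to 665 CPM in Y-P (median 495) and fell by 1.14 (adjusted p = 0.0098). *GLP1R* fell by 1.05 and *MARCHF2* by 1.23 (adjusted p = 0.0196 and 0.0171). Without the replicate block *GLP1R* had an adjusted p of 0.0761, while *MARCHF2* had -0.97 (adjusted p = 0.0171) without Y-E replicate 6. *PGAP6* fell by 1.22 (adjusted p = 0.0492) with Y-E replicate 6 and had -0.86 (adjusted p = 0.0572) without it. *MATR3*, a nuclear matrix protein, had 0.50 (adjusted p = 0.0756), *PDK4* had 0.40 (adjusted p = 0.217) and *SLC25A39* had -0.68 (adjusted p = 0.308). *CD36* was below the filter, with 0 to 9 counts in Y-E and 9 to 84 counts in Y-P. It was higher in Y-P in 6 of 6 pairs. Its adjusted p was 0.0127 in the fit of all 3 stages with the replicate block. *ALX1* and *TENT5B* had 0 counts in every Y-E library and at most 4 in Y-P, and were not tested.

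In pathways of the deposited annotation the shares that passed are read against 3.81% of all tested genes higher and 6.88% lower. Of 234 ribosome genes 17 (7.26%) were higher and 1 lower (median 0.19), but the median over the list was below 0 in 2 of 6 pairs. Of 87 genes of ribosome biogenesis 7 (8.05%) were higher and 0 lower (median 0.26), and of 177 genes of the spliceosome, which removes introns from mRNA, 11 (6.21%) were higher and 3 lower (median 0.15). Without Y-E replicate 6 the higher counts were 7, 2 and 3, where 1.1% of all tested genes were higher. Of 133 genes of leukocyte transendothelial migration 15 (11.3%) were lower and 1 higher (median -0.31), and 11 were lower without Y-E replicate 6. Of 54 genes of complement and coagulation 11 (20.4%) were lower and 1 higher (median -0.21), and of 120 genes of FoxO signalling 15 (12.5%) were lower and 2 higher (median -0.14). Without Y-E replicate 6, 5 and 9 of these were lower, where 3.84% of all tested genes were. The neutrophil sum was lower in the same libraries, and its part was not tested. The lymphoid pathways held both directions. Of 135 genes of T cell receptor signalling 7 (5.19%) were higher and 8 (5.93%) lower. Of 84 genes of B cell receptor signalling 5 (5.95%) were higher and 7 (8.33%) lower. Of 136 genes of natural killer cytotoxicity 8 (5.88%) were higher and 13 (9.56%) lower. Without Y-E replicate 6 the higher counts were 1, 1 and 1 and the lower counts 5, 4 and 9.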

How the data were processed

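Whole blood RNA of 18 libraries was sequenced after oligo-dT selection and a strand-marking preparation, per the labels. The tools listed in the submitters' processing notes are cutadapt 1.9, HISAT2 2.2.1, StringTie 2.1.6, DESeq2 and edgeR. How the counts were made is not given in the sources used here. The authors deposited raw counts and FPKM (fragments scaled to gene length and library size) for 20607 genes with Ensembl identifiers and coordinates. Counts were the main data. Of the table's value columns, 0 belonged to other samples.

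In R 4.3.3, Y-E and Y-P counts were filtered with filterByExpr, normalized by TMM and fitted with edgeR 4.0.16 (glmQLFit, glmQLFTest, two-sided) with stage and replicate number as terms, leaving 5 residual degrees of freedom. Benjamini-Hochberg adjustment covered all tested genes. SEs are the log2 fold change divided by the square root of F. Levels are CPM after TMM, and differences of pairs used a pseudocount of 0.5 CPM. A count of 3 was the floor of detection. Alternatives were DESeq2 1.42.0, limma 3.58.1 on log2(FPKM + 1) and log2(FPKM + 0.1), other scalings and filters, no block, and leaving out libraries or pairs. The scripts were tested on simulated data.

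The libraries were paired by replicate number because 6 cows were followed, but the labels do not say that a number marks a cow. Deviations from the stage means correlated at -0.0852 to 0.506 between same-numbered libraries (4 of 6 over 0.1) and at -0.422 to 0.176 between others (5 of 30 over 0.1), so the data do not settle it, and counts are given with and without the block. If the numbers mark no cow, p-values measure the spread between libraries.

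The comparison, its gene lists and its tests were chosen with earlier results of these data known. Named genes are the 10 higher and 10 lower called genes with a symbol, one direction in 6 pairs and the smallest adjusted p, then called members (up to 6) and the most abundant (up to 4) of each list, genes the study names, and up to 3 called only with or without Y-E replicate 6. Exceptions are marked, and some named genes are not reported here.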

Additional observations from a re-analysis of the deposited data

Results flagged for a closer look

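Within each stage a library was marked where its gap to the nearest other library relative to the range of the 6 exceeded Dixon's critical value at the 95% level. Of 106 groups examined, 16 values were marked, while chance alone marks about 1 group in 20. The groups did not cover every named gene, so an unmarked gene may still have a library that stands apart. In Y-E replicate 6, *ARG1* was at 215 CPM (at most 23.7 CPM in the other Y-E libraries). *HBM* was at 28.6 CPM there (at most 6.40 CPM) and *EGR1* at 13.7 CPM (at most 5.49 CPM). None of these values is among the marked. Y-E replicate 6 was the highest of its stage in total counts (46404156), hemoglobin share (8.36%), summed reticulocyte level (5046 CPM), *ALAS2* (4388 CPM), *MARCHF2* (292 CPM), *PGAP6* (256 CPM) and *SLC25A39* (635 CPM). Y-P replicate 6 was the highest of its stage in hemoglobin share (0.376%), summed reticulocyte level (264 CPM), *ALAS2* (120 CPM), *MARCHF2* (47.9 CPM) and *RARA* (665 CPM).

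In other libraries, the summed eosinophil and basophil level of Y-E replicate 2 was 1123 CPM and the summed interferon-stimulated level of Y-P replicate 4 was 10135 CPM, each the highest of its stage. *DMXL2* was highest in Y-E replicate 1 (160 CPM) and *ANKRD22* in Y-P replicate 5 (12.3 CPM).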

How the results depend on the processing

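The direction of each of the 314 called genes was the same under DESeq2, limma on both FPKM scales, library size alone, median-of-ratios scaling, no filter, no replicate block and without Y-E replicate 6. Counts moved more. DESeq2 called 495 genes (105 higher, 390 lower) and 2692 passed. Library size alone called 141 higher, and 2294 passed. On log2(FPKM + 1), limma called 147 (82 lower), with 2983 passing, and on log2(FPKM + 0.1) it called 207 higher and 145 lower. With no replicate block 74 were called higher, and 78 when Y-E replicate 6 was left out as well. In the fit of all 3 stages with the replicate block, 2608 passed. Leaving out 1 library or 1 pair gave 142 to 384 called genes, 14 to 45 higher, 116 to 349 lower, and 312 to 1143 that passed. These fits hold fewer samples by construction, and no other cause was tested. The myeloid to lymphoid difference ranged from -1.44 to -1.29 over omitted pairs and was -1.16 as a mean of logs. Without the replicate block, 0 of the 3 B cell genes passed. The neutrophil genes *ALPL* (adjusted p = 0.131) and *PROK2* (0.0537) no longer passed. Nor did the monocyte genes *CSF1R* (0.115) and *MS4A7* (0.114) and the inflammasome gene *NLRC4* (0.108). The other listed genes that no longer passed are given where they are named. Of 6 Y-E and 6 Y-P libraries, 3 and 3 correlated best with their own number. With 5 residual degrees of freedom, adjusted p-values near 0.05 are fragile, and genes under the filter were not tested.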

Other observations

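Some calls changed when Y-E replicate 6 was left out. *DYRK3*, a kinase, was at 1.94 to 26.6 CPM in Y-E, where replicate 6 was the highest, and at 0.564 to 2.43 CPM in Y-P, and was called with that library only. *FXYD3* was at 0.533 to 3.18 CPM in Y-E and 0 to 0.408 CPM in Y-P, without overlap, and was also called with that library only. Its log2 fold change was -4.54 (SE 1.08, adjusted p = 0.0305) with Y-E replicate 6. Without Y-E replicate 6 it was -5.11 (SE 1.44, adjusted p = 0.0714), so the size of the fall did not shrink. *BRI3*, at 21.7 to 67.3 CPM in Y-E and 15.0 to 36.5 CPM in Y-P, was called only without Y-E replicate 6. Its log2 fold change was -0.99 with the library and -1.20 without it.

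Heat shock chaperone genes had a median log2 fold change of 0.03, with 1 of 14 (7.14%) lower, beside 6.88% of all tested genes, and 0 higher. The lower gene was *BAG3* (-0.52), which did not pass without the replicate block (adjusted p = 0.0754) or without Y-E replicate 6 (adjusted p = 0.0725). The summed interferon-stimulated level was 3471 to 8656 CPM in Y-E and 3980 to 10135 CPM in Y-P, and the ranges overlapped, with Y-P replicate 4 above every Y-E library.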
